A study of Mus musculus with 6 samples.

Results

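The 10 genes described here encode cytokines of the interleukin-6 family, their receptors and a feedback inhibitor, and they were followed in articular cartilage of young and aged mice. They were taken by gene name from the deposited gene table, which lists 33971 genes, and all 10 were found and passed the filter on low counts that left 20397 genes for testing. The list holds 4 ligands (Il6, Il11, Lif and Osm), 5 receptor chains (Il6ra, Il11ra1, Lifr, Osmr and Il6st) and 1 intracellular inhibitor (Socs3). RNA sequencing covered 3 libraries from mice of 2 months and 3 from mice of 18 months, all of the genotype WT and with no treatment named, and the study asked how articular cartilage changes with age. The study's methods give male mice. Nothing in the labels says whether each library came from 1 animal or from pooled joints, so the p-values measure the spread between these libraries, which may in part be technical. The libraries held 48171507 to 59085179 counts.

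Cytokines of this family signal through gp130, the shared receptor chain encoded by Il6st. IL-6 and IL-11 first bind their own alpha chains, encoded by Il6ra and Il11ra1, which then engage pairs of gp130, whereas LIF joins gp130 to the LIF receptor and oncostatin M (Osm) joins gp130 to its own receptor, Osmr, with some cross-use of the LIF receptor. The assembled receptors activate JAK kinases and STAT3, and STAT3 induces Socs3, whose product shuts gp130 signalling down. In joints, IL-6 and oncostatin M are known from inflamed synovium and from assays of cartilage breakdown, and oncostatin M is made mostly by myeloid and lymphoid cells.

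The libraries differed in ways that touch every value given here. Summed over 12 chondrocyte markers, which include Cytl1 and Chad, the share of all counts ran from 5.52% to 6.65% in young libraries and from 0.105% to 0.369% in aged ones, and 12 of the 12 markers fell; Matn1 and Matn3 were at 0 in 18-month replicate 3. The 10 neutrophil markers, led by S100a9 and S100a8, took 0.000658%, 0.345% and 0.00536% of counts in 2-month replicates 1, 2 and 3 and 3.87% to 4.19% at 18 months. The 8 markers of monocytes and macrophages took 0.00238%, 0.125% and 0.0168% at 2 months and 0.684% to 0.883% at 18 months. Lyz2 led that list, with a mean FPKM of 3987 at 18 months against 218 for Ly6c2, the next. No marker of either list was at 0 in an 18-month library, while Elane and Cxcr2 were at 0 in 2-month replicate 3 and Adgre1 in 2-month replicate 1. Erythroid markers took 0.0245%, 0.627% and 0.0690% of counts at 2 months and 2.56% to 3.40% at 18 months. Megakaryocyte markers ran from 0.000730% to 0.00679% and then from 0.131% to 0.198%. B lymphocyte markers overlapped, at 0.000190%, 0.0199% and 0.000403% and then 0.0145% to 0.0178%. Thus 2-month replicate 2 stood apart from the other 2-month libraries, with more counts of neutrophils, osteoclasts (0.394% against 0.00651% and 0.0772%) and osteoblasts (1.6% against 0.394% and 0.451%). At 18 months, replicate 1 stood apart, with more counts of chondrocyte markers (0.369% against 0.105% and 0.105%) and of the fibroblast list (0.711% against 0.150% and 0.148%). The fibroblast list was led by Prg4, at a mean FPKM of 642 ± 647 (SD) at 18 months, with Thbs4 next at 17.9 ± 19.9. Its share thus leaned on Prg4 and does not by itself show more fibroblasts. Counts of Xist, the RNA that silences an X chromosome, ran from 88239 to 102417 at 2 months and from 11 to 30 at 18 months, and those of the Y-linked gene Eif2s3y from 23 to 39 and from 4830 to 5616. The sex pattern of the RNA thus divided the libraries as age did, in libraries from mice that the methods call male, and age and sex cannot be told apart here. In bulk RNA, fewer cells of a type and less RNA per cell cannot be told apart either.

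**Figure D1:**
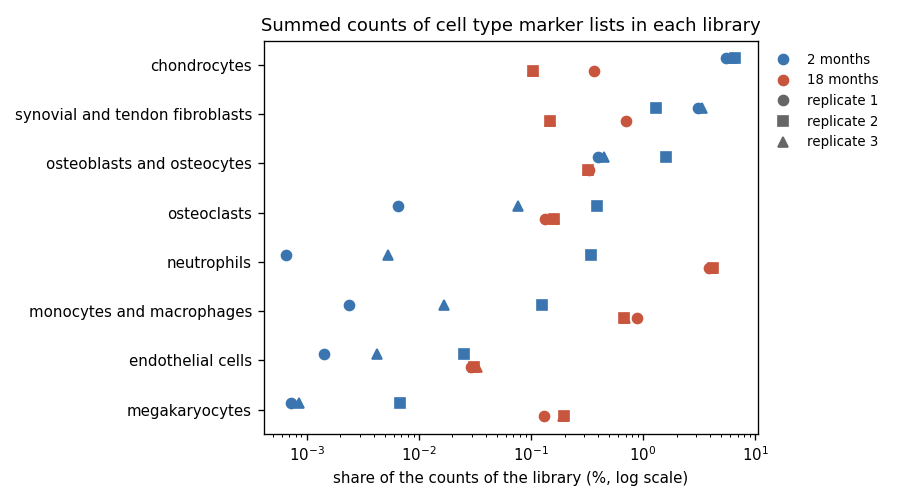
Summed counts of 8 cell type marker lists as a share of the counts of each library (percent, log scale), with 2-month libraries in blue, 18-month libraries in red and the marker shape giving the replicate. Chondrocyte markers sat at 5.52% to 6.65% at 2 months and 0.105% to 0.369% at 18 months, and the square for 2-month replicate 2 lay above the other blue points for neutrophils, osteoblasts and osteoclasts.

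The stretches below are shown because they hold a motif for STAT factors, through which these cytokines act, or for AP-1 factors, which control many cytokine genes. RefSeq promoter windows, from 250 bases before to 50 bases after a transcription start on build GRCm38.p6, were found for 9 of the 10 genes (12 windows, since some genes have more than 1), and Osm is named only. The STAT motif was searched as TTCNNNGAA and the AP-1 motif as TGANTCA, and each reads the same on both strands. Of 32851 windows of 300 bases, 8.3% held the first and 7.81% the second. Among the family, 1 window held the STAT motif, that of Socs3, at 154 bases before the start. The AP-1 motif lay in 4 windows, 249 bases before the start of Il6, 98 bases before a start of Il11, 228 bases before the start of Lif and 3 bases past the start of Osmr. Capitals mark the motif, and each stretch is written 5′ to 3′ on the strand of its gene: Socs3 at chr11:117969367-117969566 on the minus strand, Il6 at chr5:30012864-30012891 on the plus strand, Il11 at chr7:4778213-4778259 on the minus strand and Lif at chr11:4257320-4257366 on the plus strand.
Socs3: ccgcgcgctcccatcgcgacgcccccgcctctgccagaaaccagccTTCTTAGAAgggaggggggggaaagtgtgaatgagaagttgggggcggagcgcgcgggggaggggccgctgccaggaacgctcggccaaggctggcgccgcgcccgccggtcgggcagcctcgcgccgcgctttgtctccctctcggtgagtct
Il6: cTGAGTCActtttaaagaaaaaaaagaa
Il11: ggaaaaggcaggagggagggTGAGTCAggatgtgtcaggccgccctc
Lif: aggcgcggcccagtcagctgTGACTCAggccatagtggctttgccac
A match is a description of the letters in these windows and shows no binding.

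Across the family, 5 of the 10 genes were called, a call being an adjusted p under 0.05 and a log2 fold change past 1 in either direction. Il6 and Socs3 were higher at 18 months, and Il11, Il11ra1 and Osmr were lower. Here and below, rises and falls are differences between the 2 groups, which the sex pattern divides as age does. Among all genes tested, 36.3% were called, 14.9% higher and 21.3% lower at 18 months. By adjusted p alone, 7 of the 10 genes passed (Il6st and Lifr joining the lower side), against 51.3% of all genes, 23.4% higher and 27.9% lower. The FPKM values of the groups did not overlap for 8 of the 10 genes, 3 higher and 5 lower, and for 68.4% of all genes, 35.6% higher and 32.8% lower. Without 2-month replicate 2, 7 of the 10 were called, since Lif and Osm joined the higher side, and 44.6% of all genes were, 23.3% higher and 21.3% lower. Over the 10 genes, the median log2 fold change was -0.54, and that of all genes tested was -0.02. The levels of the receptor chains and of the ligands were also summed. The summed FPKM (fragments scaled to transcript length and library size, so a level per length) of the 5 receptor chains was 73.0, 68.1 and 83.3 at 2 months and 45.2, 37.8 and 39.2 at 18 months, while that of the 4 ligands was 0.677, 2.59 and 0.646 at 2 months and 9.46, 9.21 and 8.81 at 18 months. Neither pair of groups overlapped. The ligand sum at 18 months was mostly Osm, with a mean of 7.89 of 9.16, and Osm was not called; of the 4 ligands 1 was called higher (Il6) and 1 lower (Il11). The two-sided exact permutation test gave p = 0.1 for each sum, the smallest value that 3 libraries against 3 can give.

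**Figure D2:**
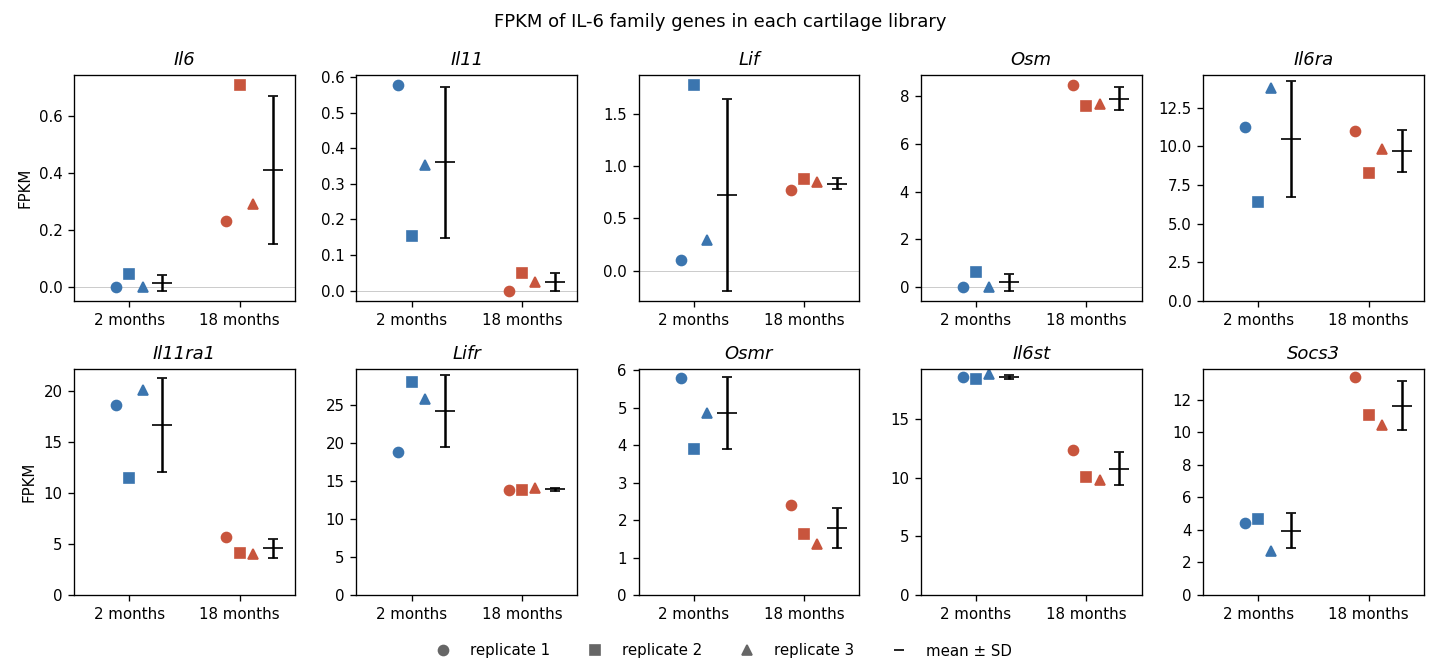
FPKM of the 10 genes in each of the 6 libraries, 2 months in blue and 18 months in red, with the marker shape giving the replicate, black bars for mean ± SD and a separate axis for each gene. Osm lay at 7.58 to 8.45 in the 18-month libraries and at 0, 0.611 and 0 in the 2-month libraries, and the points of Lif and Il6ra overlapped between the ages.

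Oncostatin M (Osm, ENSMUSG00000058755, chr11:4236420-4241026, plus strand, as the deposited table gives it) was the most abundant of the 4 ligands in aged cartilage. Its FPKM was 0, 0.611 and 0 at 2 months and 8.45, 7.58 and 7.65 at 18 months, from 0, 82 and 0 counts and from 1292, 1083 and 1109 counts. The groups did not overlap, and every Osm count at 2 months came from replicate 2, the library that also held the most neutrophil, monocyte and osteoclast counts of its age. The log2 fold change was 5.25 (SE 1.78) with an adjusted p of 0.0510, so Osm was not called. Of the 10 alternatives that kept all 6 libraries, 4 called it (adjusted p 0.000318 to 0.0477). These were median-of-ratios size factors and limma on log2(FPKM + 0.1), log2(FPKM + 1) and log2(TPM + 0.1). With any library other than 2-month replicate 2 left out, Osm stayed uncalled (adjusted p 0.0627 to 0.117). Without 2-month replicate 2 the gene passed (adjusted p = 6.34e-05), but only counts of 0 were then left at 2 months. That pass thus followed from which library was left out. Its level at 18 months was then at least 329-fold higher than a floor of 3 counts per library. Under the same omission, the number of neutrophil markers called higher went from 0 of 10 to 10 of 10. That of monocyte and macrophage markers went from 2 of 8 to 8 of 8. The share of all genes called higher went from 14.9% to 23.3%. Since 2-month replicate 2 held most of the young counts of both lists, these moves followed from the omission and tell nothing about Osm. Lists of other cells moved as well. B lymphocyte markers went from 0 to 6 of 6, erythroid markers from 3 to 7 of 7 and endothelial markers from 1 to 5 of 6. T and NK lymphocyte markers and megakaryocyte markers each went from 5 to 6 of 6. Osteoblast markers went from 0 to 3 of 7 and adipocyte markers from 1 to 3. Other lists did not move: osteoclast markers stayed at 0 of 5 called higher, fibroblast markers at 1 of 7 and chondrocyte markers at 0 of 12. What part these cells have in the Osm level was not tested.

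Interleukin-6 (Il6, ENSMUSG00000025746, chr5:30013114-30019981, plus strand) is the founding cytokine of the family and acts on cells that carry its alpha chain or receive it in soluble form. It was scarce in every library. The counts were 0, 7 and 0 at 2 months and 39, 110 and 46 at 18 months, and the FPKM values were 0, 0.0479 and 0 and then 0.233, 0.710 and 0.294. The groups did not overlap, and replicate 2 was the highest library of its age in both groups. Il6 rose by a log2 fold change of 4.55 (SE 1.31, adjusted p = 0.0312). The call was lost when any library other than 2-month replicate 2 was left out, with adjusted p-values up to 0.104. Leaving out 2-month replicate 2 left only counts of 0 at 2 months and kept the call (adjusted p = 0.00590). The level at 18 months was then at least 18.7-fold higher than the same floor.

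Interleukin-11 (Il11, ENSMUSG00000004371, chr7:4772373-4782857, minus strand), a cytokine known from bone and stromal tissue, went the other way. Its FPKM was 0.577, 0.153 and 0.352 at 2 months and 0, 0.0491 and 0.0247 at 18 months, from 67, 19 and 42 counts and from 0, 7 and 4 counts. All 2-month libraries lay above all 18-month libraries, and 2-month replicate 2 was the lowest of its age. Il11 fell by 3.77 on the log2 scale (SE 1.11, adjusted p = 0.0340). The call was lost without 2-month replicate 1, 2-month replicate 3, 18-month replicate 2 or 18-month replicate 3 (adjusted p up to 0.107).

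Leukaemia inhibitory factor (Lif, ENSMUSG00000034394, chr11:4257557-4272514, plus strand) lies 16530 bases from Osm on the same strand. Lif FPKM was 0.10, 1.77 and 0.295 at 2 months and 0.769, 0.874 and 0.847 at 18 months. The 3 aged libraries lay close together, inside the wide range of the young ones, where replicate 2 was the highest of all 6 libraries. The log2 fold change was 0.19 (SE 0.95) with an adjusted p of 0.882. That value rested on single libraries: leaving out 2-month replicate 2 gave 1.97 (adjusted p = 0.0199), and leaving out replicate 1 or 3 of that age gave -0.32 or -0.17.

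The interleukin-11 receptor alpha chain (Il11ra1, ENSMUSG00000073889, chr4:41699989-41769474, plus strand) showed the deepest fall among the receptors. Its FPKM was 18.6, 11.4 and 20.02 at 2 months and 5.64, 4.07 and 4.01 at 18 months. The lowest young library was thus above the highest aged one. Il11ra1 fell by 1.96 on the log2 scale (SE 0.29, adjusted p = 0.00370) and was called under 16 of 16 alternative settings. With Il11, both the ligand and its own alpha chain were lower in aged cartilage. Reads of Il11ra1 could be split with the near-identical genes Il11ra2 and Gm13305, whose transcripts match it at 99.0% of aligned bases each. These copies took 1.58% to 5.98% of the counts of the 3 genes, and the fold change of the summed counts was -1.97. The span listed for Il11ra1 also overlaps 6 annotated genes, 1 of them (Galt) on the same strand.

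The oncostatin M receptor (Osmr, ENSMUSG00000022146, chr15:6813577-6874969, minus strand) pairs with gp130 to bind oncostatin M. Its FPKM was 5.81, 3.89 and 4.87 at 2 months and 2.40, 1.62 and 1.36 at 18 months, with no overlap. Osmr fell by 1.53 on the log2 scale (SE 0.27, adjusted p = 0.00644). It was called in 15 of 16 alternatives, the exception being a test against a fold change of 2 (adjusted p = 0.0671). Ligand and receptor changed places in their levels per length: Osm was below Osmr in all 3 young libraries and above it in all 3 aged ones.

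The LIF receptor gene (Lifr, ENSMUSG00000054263, chr15:7090614-7197489, plus strand), 215644 bases from Osmr, was the most abundant of the 10 at both ages. Its FPKM was 18.8, 28.0 and 25.8 at 2 months and 13.8, 13.7 and 14.1 at 18 months. All aged libraries lay below all young ones. The log2 fold change was -0.87 (SE 0.16, adjusted p = 0.00665), which passed the adjusted p but not the fold limit, so Lifr was not called. The ratio of Osmr to Lifr, which weighs the 2 partners that can carry oncostatin M signals with gp130, was 0.309, 0.139 and 0.188 at 2 months and 0.174, 0.118 and 0.0965 at 18 months, and these ranges overlapped (two-sided exact permutation p = 0.2).

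The gene of gp130 itself (Il6st, ENSMUSG00000021756, chr13:112464070-112510086, plus strand) was the steadiest of the 10 in young cartilage, at 18.5, 18.4 and 18.8 FPKM. In aged cartilage it was 12.4, 10.1 and 9.83. The groups did not overlap, and 2-month replicate 2 did not stand apart from the other young libraries for this gene. The log2 fold change was -0.87 (SE 0.12, adjusted p = 0.00348), again past the adjusted p and short of the fold limit.

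The interleukin-6 receptor alpha chain (Il6ra, ENSMUSG00000027947, chr3:89864059-89913196, minus strand) was the receptor whose groups overlapped. Its FPKM was 11.3, 6.42 and 13.8 at 2 months and 11.01, 8.27 and 9.87 at 18 months. Replicate 2 was the lowest of its age in both groups. The log2 fold change was -0.21 (SE 0.32, adjusted p = 0.608), and leaving out 2-month replicate 3 gave 0.058. With replicate 2 of that age left out instead, it was -0.47 with an adjusted p of 0.0402, short of the fold limit.

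**Figure D3:**
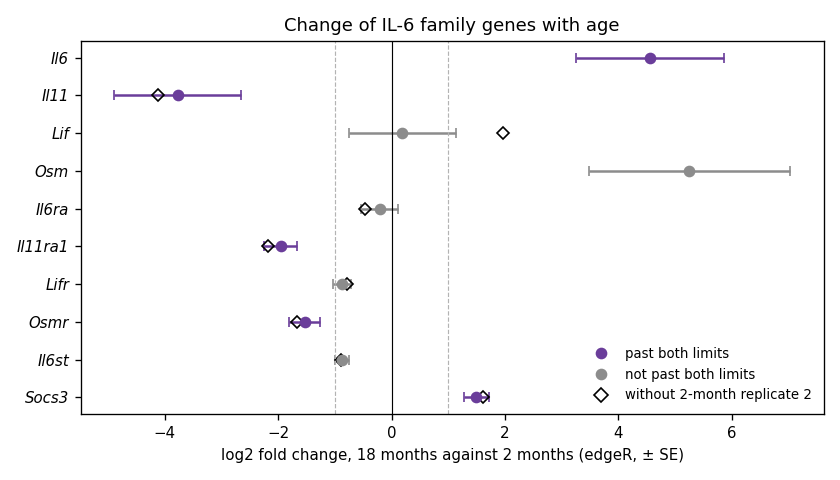
Log2 fold change (18 months minus 2 months) of the 10 genes from the fit over all genes, with bars of 1 SE, purple for called genes and grey for the others, and open diamonds for the fit without 2-month replicate 2. No diamond is drawn for Osm and Il6, which were at 0 in the remaining 2-month libraries. Il11ra1 and Osmr lay below -1 and Socs3 above 1 with and without that library, and the diamond of Lif lay at 1.97 against 0.19.

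The make-up of the receptor pool was compared as well. Of the FPKM of the 5 chains in each library, which does not depend on scaling between libraries, Il6ra made up 15.5%, 9.42% and 16.6% at 2 months and 24.4%, 21.9% and 25.2% at 18 months. Il11ra1 made up 25.4%, 16.8% and 24.0% at 2 months and 12.5%, 10.8% and 10.2% at 18 months, a difference of -10.9 percentage points that was -5.58 when counts replaced FPKM. Osmr made up 7.96%, 5.71% and 5.84% and then 5.31%, 4.28% and 3.47%. Thus the share of Il6ra was higher and those of Il11ra1 and Osmr lower in every aged library, each with a two-sided exact permutation p of 0.1, the smallest possible. A share rises when the other chains fall, and the FPKM of Il6ra itself did not rise (log2 fold change -0.21, groups overlapping). The same holds for its ratio to gp130 below. The share of Lifr (32.6% ± 7.75 and 34.3% ± 3.29, SD, n = 3, exact permutation p = 0.8) and that of Il6st (25.0% ± 2.26 and 26.4% ± 1.16, SD, n = 3, exact permutation p = 0.5) overlapped between the ages. Set against gp130, Il6ra stood at 0.609, 0.349 and 0.734 of the Il6st FPKM at 2 months and at 0.891, 0.820 and 1.004 at 18 months, with no overlap (exact permutation p = 0.1).

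**Figure D4:**
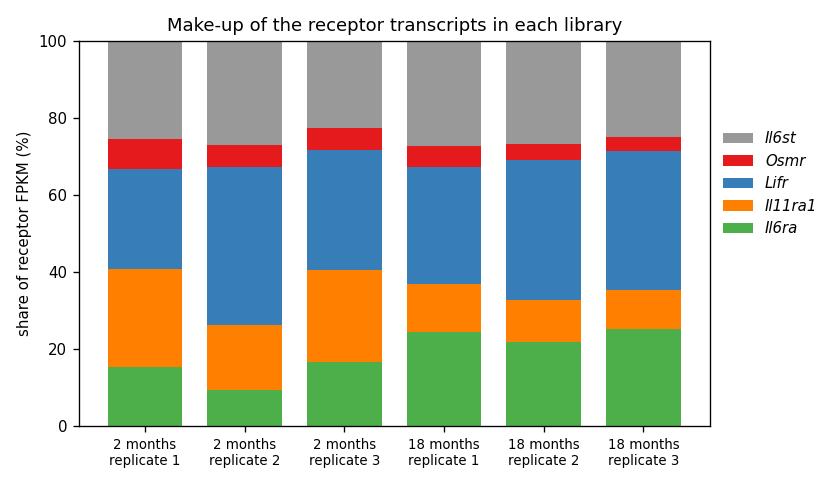
Share of each receptor chain in the summed FPKM of the 5 chains (percent), as 1 stacked bar for each library and 1 colour for each chain. The group mean of Il6ra was 13.8% and then 23.8% and that of Il11ra1 22.1% and then 11.2%, while the shares of Lifr and Il6st overlapped between the ages.

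Socs3 (ENSMUSG00000053113, chr11:117966079-117970047, minus strand), the feedback inhibitor that binds gp130, was higher in every aged library. Its FPKM was 4.45, 4.65 and 2.71 at 2 months and 13.4, 11.1 and 10.5 at 18 months. The highest young value was less than the lowest aged value, and 2-month replicate 2 was close to replicate 1 of its age. Socs3 rose by a log2 fold change of 1.49 (SE 0.22, adjusted p = 0.00377) and was called in 16 of 16 alternatives. The promoter stretch with the STAT motif printed above belongs to this gene and lies inside the span listed here, since the RefSeq start differs from the end of that span. Whether STAT factors bind there was not tested. Relative to the gp130 transcript, the ratio of Socs3 to Il6st FPKM was 0.240, 0.253 and 0.144 at 2 months and 1.08, 1.10 and 1.07 at 18 months, a difference of 2.39 on the log2 scale (exact permutation p = 0.1).

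The order of the 10 genes by mean FPKM changed between the ages. Young cartilage ran from Lifr (24.2) through Il6st (18.6), Il11ra1 (16.7), Il6ra (10.5), Osmr (4.86) and Socs3 (3.94) to Lif (0.723), Il11 (0.361), Osm (0.204) and Il6 (0.0160). There, every receptor chain stood above every ligand, and among neighbours in the order the libraries overlapped except between Lifr and Il6st, between Il6ra and Osmr and between Socs3 and Lif. Aged cartilage ran from Lifr (13.9) through Socs3 (11.6), Il6st (10.8), Il6ra (9.72) and Osm (7.89) to Il11ra1 (4.57), Osmr (1.79), Lif (0.830), Il6 (0.412) and Il11 (0.0246). Here the neighbours from Socs3 to Osm overlapped, and all other neighbours were separate. Osm thus moved from the ninth place to the fifth, and Socs3 from the sixth to the second.

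For each called gene, the 3 genes with the most similar profile over the 6 libraries were sought among 13900 genes, by the root mean square difference of centred log2 counts scaled to library size, where 0 is an identical profile. The likeness covers 6 libraries in 2 age groups, so any gene with a like age difference scores well. Among the 3 closest to Il11ra1 were Izumo4 (0.0683) and Plxdc2 (0.0696). Osmr was closest to Tmem237 (0.0808), Kifc3 (0.0901) and Cemip2 (0.0964). Socs3 was closest to Zfp141 (0.134), Il13ra1 (0.140) and Gm7367 (0.150). Of these neighbours, Il13ra1 is itself a cytokine receptor chain, for interleukin-13. The scarce ligands had looser neighbours: Gata2 (0.314), Cox6b2 (0.372) and Gm11662 (0.384) for Il6, and Nppa (0.403), Hoga1 (0.425) and Ciart (0.458) for Il11.

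Around these genes, 48 further genes of the pathway were listed, of which 46 were tested and 19 were called, 11 higher and 8 lower. That is 41.3% of them, beside the 36.3% of all genes given above, and their median log2 fold change was 0.26. Without 2-month replicate 2, 25 of the 47 then tested were called, beside 44.6% of all genes. Among 6 further ligands tested, Il27 (4.88, SE 1.27, adjusted p = 0.0225) and Ebi3 (4.49, SE 1.47, adjusted p = 0.0468), the subunits of interleukin-27, rose, the first called under 10 and the second under 8 of 16 alternatives. Ebi3 FPKM was 0, 1.52 and 0.136 at 2 months and 12.5, 12.7 and 12.5 at 18 months, so that, as for Osm, most of the young signal lay in replicate 2. Ctf1, which encodes cardiotrophin-1, a ligand that shares the LIF receptor, fell by 2.92 (SE 0.43, adjusted p = 0.00374), and Clcf1, a ligand of the ciliary neurotrophic factor receptor, fell by 1.003, at the fold limit, and was called under 4 of 16 alternatives. Among 4 further receptor chains, Cntfr, the alpha chain of that receptor, was called with all 6 libraries in the fit and fell by 4.14 (SE 0.96, adjusted p = 0.0155), from 11.6, 3.94 and 17.3 FPKM to 1.47, 0.279 and 0.261. It was 1 of the 4 called in that fit, or 25%, beside 36.3% of all genes. Without 2-month replicate 2, 4 of the 4 chains were called, 2 higher (Il27ra and Il31ra) and 2 lower (Cntfr and Il11ra2), beside 44.6% of all genes. Over 16 alternatives Cntfr was called under 14, Il27ra under 4 and Il31ra and Il11ra2 under 2 each. The FPKM of Il11ra2, the near-identical copy of Il11ra1, overlapped between the ages. Of the proteases that release soluble IL-6 receptor, Adam10 rose by 1.81 (SE 0.44, adjusted p = 0.0185) and Adam17 had a value of -0.08 (adjusted p = 0.747).

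Downstream of gp130, 3 of 11 signal transduction genes were called (27.3%, beside 36.3% of all genes), and Stat3 was not among them. Grb2, an adaptor towards the RAS and MAP kinase branch, rose by 1.299 (SE 0.13, adjusted p = 0.00160), and Gab1, a docking protein of the same branch, fell by 2.87 (SE 0.26, adjusted p = 0.00127). Gab1 FPKM was 33.2, 20.5 and 34.1 at 2 months and 4.53, 4.16 and 4.14 at 18 months. Stat3, named for its role after its values were seen, had a mean FPKM of 14.7 ± 0.418 at 2 months and 16.8 ± 0.913 at 18 months (SD, n = 3), with a log2 fold change of 0.11 (SE 0.11, adjusted p = 0.429) that was -0.24 on TPM values, or 0.09 relative to the median of all genes on that scale. Jak1, likewise named for its role, had a log2 fold change of 0.73 (SE 0.16, adjusted p = 0.0137), short of the fold limit.

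The other inhibitors of the pathway went both ways. Of the 8 listed, Cish, a relative of Socs3 induced by STAT5, rose by 3.70 (SE 0.61, adjusted p = 0.00519), Socs2 fell by 1.71 (SE 0.20, adjusted p = 0.00203), and the other 6 were not called. Ptpn6, a phosphatase of blood cells with the highest mean of the 8 over the 6 libraries, had FPKM values of 0.725, 18.4 and 1.02 at 2 months and 95.6, 66.6 and 69.6 at 18 months (adjusted p = 0.0654). Of 15 genes known as STAT3 targets, 5 rose and 3 fell, or 53.3% called beside 36.3% of all genes. Saa3, an acute phase protein, rose by 4.10 (SE 1.17, adjusted p = 0.0302) at 0, 0.0241 and 0 FPKM and then 0.218, 0.0930 and 0.193, a call that held under 5 of 16 alternatives. Bcl3 rose by 1.95 (SE 0.54, adjusted p = 0.0269), called under 10 of 16. Vegfa, the growth factor of blood vessels, which hypoxia also induces, fell by 3.16 (SE 0.33, adjusted p = 0.00166), from 159, 95.7 and 128 FPKM to 20.9, 12.3 and 12.7. Lcn2, a secreted protein that neutrophils store, had the highest mean over the 6 libraries at 2.11, 72.7 and 1.22 FPKM and then 812, 819 and 799 (adjusted p = 0.0506), and, like Osm, it had nearly all of its young signal in replicate 2.

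**Figure D5:**
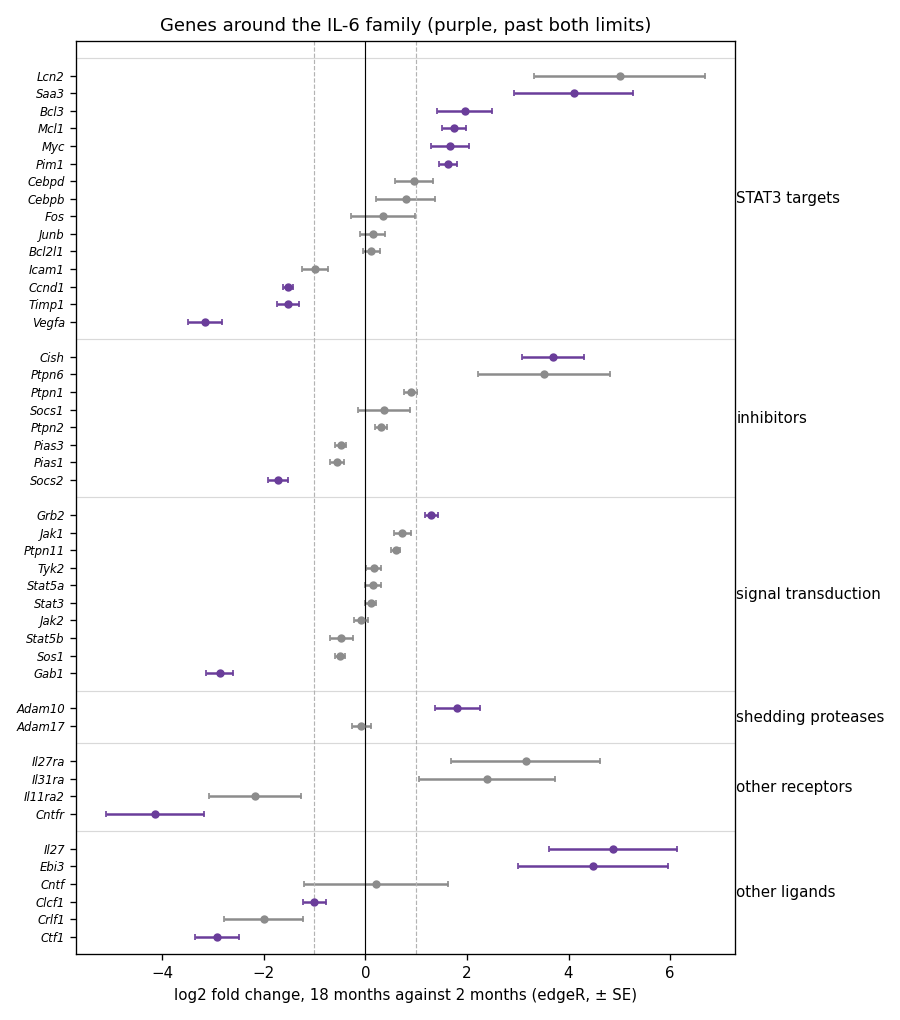
Log2 fold change (18 months minus 2 months) of the pathway genes tested beyond the 10 described above, by list, with 1 of the 46 not drawn, with bars of 1 SE, purple for called genes and grey for the others. Each list held points on both sides of 0, and of all 46 genes 11 were called higher and 8 lower.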

How the data were processed

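Poly(A) RNA of articular cartilage was sequenced from both ends in 6 libraries, 3 per age, with adapters that carry molecular identifiers. The submitters' processing notes name cutadapt 1.9, HISAT2 2.0.4, UMI-tools, StringTie 1.3.4d, DESeq2 and edgeR, with no role given, and the genome build is not given in the sources used here. Raw counts, whole numbers per gene and library, and FPKM values, scaled for transcript length and library size, were deposited by the authors. Depth was 48171507 to 59085179 counts. Of 33971 genes, 33865 were found in GENCODE M21 and 30925 had the same coordinates there, among them 9 of the 10 family genes.

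The test was edgeR 4.0.16 in R 4.3.3 (TMM, filterByExpr, quasi-likelihood, Benjamini-Hochberg adjustment over 20397 genes, all 6 libraries, no replicate block). A call needed an adjusted p under 0.05 and a log2 fold change past 1. The SE was derived as log2 fold change over √F. Shares and ratios were tested with exact permutations over libraries. Groups came from the sample titles. The replicate numbers did not pair the libraries (correlations of deviations -0.055 to 0.053). The alternatives were median-of-ratios size factors, total counts alone, no filter, DESeq2 1.42.0, limma 3.58.1 on log2(FPKM + 0.1), log2(FPKM + 1) and log2(TPM + 0.1), a test against a fold change of 2, the replicate block and each library left out. Summing Il11ra1 with its copies was added after seeing the data. The fit was tested on simulated data.

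The family genes and all lists were chosen with earlier results of these data known. Named beside the family were, per pathway list, up to 3 called genes with the largest fold change and the most abundant gene, per called member the 3 nearest profiles (mean FPKM at or above 1), and up to 2 most abundant genes per cell type list. Genes named outside this rule (Clcf1, Adam17, Jak1, Stat3, Il27ra, Il31ra, Il11ra2) were chosen after their values were seen. A pathway gene and a profile neighbour that the rule names are not reported here. Il31 was not analysed here, and Ctf2 did not pass the filter.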

Additional observations from a re-analysis of the deposited data

How the results depend on the processing

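Of the 5 called family genes, Il11ra1 and Socs3 were called under 16 of 16 alternatives, Osmr under 15, Il6 under 9 and Il11 under 8. Osm was called under 5, Lifr under 2, Il6st and Lif under 1 each and Il6ra under 0. The count of 5 became 8 with limma on log2(TPM + 0.1), which shifted the median of all genes to -0.33 and added Osm, Lifr and Il6st (41.5% of all genes were called there). Relative to that shift Lifr stood at -0.89 and Il6st at -0.90. It became 2 in the test against a fold change of 2, where 11 pathway genes in place of 19 and 4033 genes in place of 7401 were called. Leaving out each library gave 3 to 7 family genes, 11 to 25 pathway genes and 5640 to 9583 genes in all. The 3 came without 2-month replicate 3, 18-month replicate 2 or 18-month replicate 3 (Il11ra1, Osmr and Socs3 remained), and the 7 without 2-month replicate 2. The pathway count was 11 without 2-month replicate 3 or 18-month replicate 3 and 12 without 18-month replicate 2. Over the same omissions the log2 fold change of Lif ran from -0.32 (without 2-month replicate 1) to 1.97 (without 2-month replicate 2) and was -0.17 without 2-month replicate 3; that of Il6ra ran from -0.47 (without 2-month replicate 2) to 0.058 (without 2-month replicate 3). The difference in the share of Lifr, 1.68 percentage points with all libraries, ran from -1.73 (without 2-month replicate 1) to 5.89 (without 2-month replicate 2). No family gene changed sign with another scaling. With counts in place of FPKM, the difference in the share of Il11ra1 was -5.58 in place of -10.9. The causes were not tested.

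With the replicate block, which the numbers do not justify as a pairing, 4 family genes, 17 pathway genes and 6032 genes in all were called, and Il11 was lost (adjusted p = 0.126). Of all called genes, 41.2% were higher at 18 months; this was 50.6% with limma on log2(FPKM + 0.1), 57.8% on log2(FPKM + 1) and 52.2% without 2-month replicate 2. Il6 and Osm at 2 months and Il11 at 18 months had libraries with counts under 10, and a count of 0 allows up to 3.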
